A study of Mus musculus with 6 samples.

Results

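The genes described here are 43 named enzymes, carriers and regulators of fatty acid uptake and oxidation, of pyruvate dehydrogenase and of the tricarboxylic acid cycle. They were taken by symbol from a gene table of 22036 rows, all 43 were found once, and all passed the filter on low counts. Of these, 20 serve fatty acid uptake, activation and beta-oxidation, 17 encode enzymes of the tricarboxylic acid cycle, 3 encode the pyruvate dehydrogenase complex, and 3 (Pdk2, Pdk4 and Ucp3), called fuel switch genes below, are known for setting or following the choice between glucose and fat. The skeletal muscle came from mice lacking PRR14, a nuclear protein, in both groups. One group had received MEF2C-GFP by adeno-associated virus (AAV, used to carry genes into tissue), where MEF2C is a transcription factor of muscle genes and GFP is green fluorescent protein. The other had received AAV carrying GFP. Both were collected 1 month after injection, with 3 Nanopore cDNA libraries each. The muscle, the age and sex of the mice, the promoter in the virus, the cells in which PRR14 was deleted and whether the libraries are separate animals do not stand in the labels, so the p-values here reflect no more than how these libraries varied, which may be technical.

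Long-chain fatty acids are released from circulating triglyceride by lipoprotein lipase, cross the membrane, are bound by a cytosolic carrier, joined to coenzyme A and passed into mitochondria as carnitine esters. Beta-oxidation then removes acetyl-CoA units in repeated rounds of dehydrogenation, hydration, dehydrogenation and thiolysis. Pyruvate from glycolysis enters as acetyl-CoA through pyruvate dehydrogenase, and the cycle oxidises acetyl-CoA from both sources, with the electrons going to the respiratory chain. Slow and oxidative fibres are known to carry more of this machinery than fast glycolytic fibres.

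Counts in the listed genes ranged from 3370833 to 3900617 per library, and the 43 genes had between 15 and 11837 counts each in any library. Levels are given as normalised CPM, the count of a gene relative to library size after scaling by TMM factors. Mef2c itself measured 234, 196 and 371 CPM (MEF2C) against 223, 261 and 236 (GFP), so that only MEF2C replicate 3 exceeded the GFP libraries. The gene does not bear out the label of MEF2C replicates 1 and 2, but whether transcripts of the virus are counted under it was not tested. "MEF2C replicate" below means the library so labelled, and values of single libraries are listed in the order of replicates 1, 2 and 3 of each group. The 8 skeletal muscle markers were present in every library and summed to between 106300 and 149900 CPM. Among libraries, 12 slow-fibre markers summed to 2416, 2661 and 643 CPM in MEF2C replicates 1, 2 and 3 and to 440, 456 and 785 in GFP replicates 1, 2 and 3. All 11 slow-fibre markers that were tested were positive and 0 were called by edgeR (8 at an unadjusted p under 0.05), with Myh7b at 0 in MEF2C replicate 1. The 12 fast-fibre markers summed to between 141100 and 148100 CPM in the libraries labelled MEF2C and between 187600 and 215700 in the GFP libraries, with 3 called lower. The 9 neutrophil markers summed to 1264 CPM in MEF2C replicate 1 and to 79.5 or less in each other library.

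None of the 43 genes passed the test between the groups, and the differences were small in both directions. By edgeR 0 of 43 had an adjusted p under 0.05 over all genes, beside 0.0758% of the 9229 genes tested (0.0325% higher and 0.0433% lower in the libraries labelled MEF2C), and DESeq2 and limma-voom also called 0 (4 and 2 of the 43 at an unadjusted p under 0.05, beside 3.21% and 5.66% of all genes in those fits). At an unadjusted p under 0.05 there were 2, Lpl and Ucp3, beside 5.71% of all genes tested. The smallest adjusted p among the 43 was 0.749. For 31 of the 43 the 95% interval of the log2 fold change lay within 0.5 in both directions, and for 39 within 1. Groups did not overlap for Lpl (higher in the libraries labelled MEF2C) and for Ucp3 and Suclg1 (lower), which is 6.98% of the 43 beside 11.1% of all genes tested (5.75% higher and 5.33% lower). In bulk tissue, fewer cells of a type and less RNA per cell cannot be told apart.

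**Figure D1:**
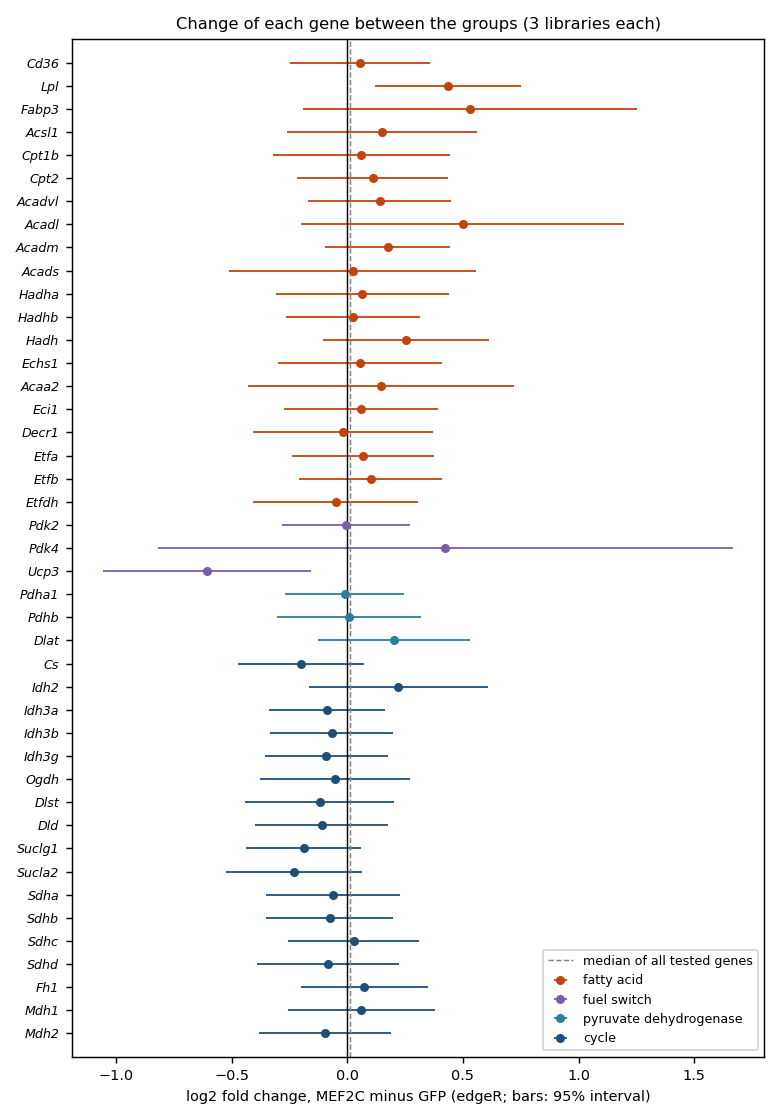
Log2 fold change of each of the 43 genes (MEF2C minus GFP, edgeR, 3 libraries per group) on the horizontal axis, with 95% intervals as bars, coloured by class; the dashed line is the median of all 9229 tested genes at 0.01. The fatty acid genes lie mostly to the right of 0 and the cycle genes mostly to the left, and the intervals of Lpl and Ucp3 leave out 0.

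Fatty acid genes lay mostly above 0 and cycle genes mostly below it. Log2 fold changes were positive for 18 of the 20 fatty acid genes; their median was 0.09 and their range ran from -0.05 (Etfdh) to 0.53 (Fabp3). Of the 17 cycle genes 4 were positive (Idh2, Sdhc, Fh1 and Mdh1), with a median of -0.08 and a range from -0.23 (Sucla2) to 0.22 (Idh2). Over all genes tested, 52.2% were positive and the median was 0.01. With library totals in place of TMM factors the median of all genes was 0.14, those of the fatty acid genes and of the 20 cycle and pyruvate dehydrogenase genes were 0.21 and 0.05, and 20 and 17 were positive. The fatty acid median thus stayed above that of all genes and the other below it, while the sign of the other turned. The count of positive fatty acid genes was 12 without MEF2C replicate 1, 10 without MEF2C replicate 2 and 11 without GFP replicate 1, and their median was 0.003 without MEF2C replicate 2. The median of the cycle and pyruvate dehydrogenase genes was -0.07 (6 of 20 positive) and became 0.02 (12 of 20) without MEF2C replicate 3.

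Among the genes of uptake and activation, Fabp3 and Lpl had the largest differences. Fabp3 (ENSMUSG00000028773, GRCm38 chromosome 4, 130308595 to 130315463), the cytosolic fatty acid carrier of heart and oxidative muscle, measured 2618, 2948 and 1368 CPM (MEF2C) against 1488, 1453 and 1864 (GFP). MEF2C replicates 1 and 2 lay above every GFP library and MEF2C replicate 3 below every one. The log2 fold change was 0.53 ± 0.30 (SE; 95% interval -0.19 to 1.25; edgeR adjusted p = 0.928). Without MEF2C replicate 3 it was 0.80 and Fabp3 passed over all genes (edgeR adjusted p = 0.0189), which it did under no other alternative. Without MEF2C replicate 2 it was 0.31. The sum of the slow-fibre markers given above was also high in MEF2C replicates 1 and 2, but in replicate 3 it lay within the GFP range. That sum leans on Ankrd2, which measured 163 CPM in MEF2C replicate 3 and 160, 188 and 408 in the GFP libraries. For 8 of the 11 slow-fibre markers tested, all libraries labelled MEF2C, replicate 3 included, were above all GFP libraries, beside 5.75% of all genes tested. The part of slow fibres in the Fabp3 values was not tested.

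Lpl, lipoprotein lipase (ENSMUSG00000015568, chromosome 8, 68880491 to 68907448), measured 396, 300 and 310.0 CPM (MEF2C) against 215, 242 and 287 (GFP). All libraries labelled MEF2C were above all GFP libraries. The log2 fold change was 0.43 ± 0.15 (SE; 95% interval 0.12 to 0.75; edgeR adjusted p = 0.749), and it lay between 0.29 and 0.55 when single libraries were left out. Lipoprotein lipase is also made by adipocytes. The 8 adipocyte markers summed to 911, 1912 and 1269 CPM in MEF2C replicates 1, 2 and 3 and to between 810 and 1092 in the GFP libraries; all 6 that were tested were positive and 0 were called by edgeR (1 at an unadjusted p under 0.05), Plin1 was at 0 in GFP replicate 1 and Adrb3 at 0 in MEF2C replicate 1. Lpl was highest in MEF2C replicate 1, where this sum was lowest of its group. The 5 red blood cell markers summed to 8631, 4393 and 4854 CPM (MEF2C) against 3723, 3080 and 4166 (GFP), and the 6 smooth muscle and pericyte markers to 928, 938 and 1010 against 706, 919 and 801. Neither sum overlapped between the groups; all 5 and all 6 markers were positive, none was at 0 in any library, and 0 were called by edgeR (2 of each list at an unadjusted p under 0.05). The 8 macrophage markers summed to 486, 443.5 and 426 CPM (MEF2C) against 309, 428 and 558 (GFP). Those sums overlapped, with 5 of 8 markers positive, 0 called by edgeR and none at 0. The part of any of these cell types, adipocytes included, in the Lpl values was not tested.

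Cd36, the membrane fatty acid translocase (chromosome 5, 17781690 to 17888801), measured 319.5, 243 and 241 CPM (MEF2C) against 231, 261 and 281 (GFP). The groups overlapped, with a log2 fold change of 0.05 ± 0.14 (SE; 95% interval -0.25 to 0.36; edgeR adjusted p = 0.993). Cd36 is also an endothelial gene, and the 8 blood endothelial markers summed to between 405 and 442.5 CPM in the libraries labelled MEF2C and between 393 and 419 in the GFP libraries, with 5 of 8 positive, 0 called and none at 0. Acsl1, which joins fatty acids to coenzyme A, had a log2 fold change of 0.15 ± 0.19 (SE). It stood above every GFP library in MEF2C replicates 1 and 2 (134 and 156 CPM) and below every one in replicate 3 (86.9 CPM).

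**Figure D2:**
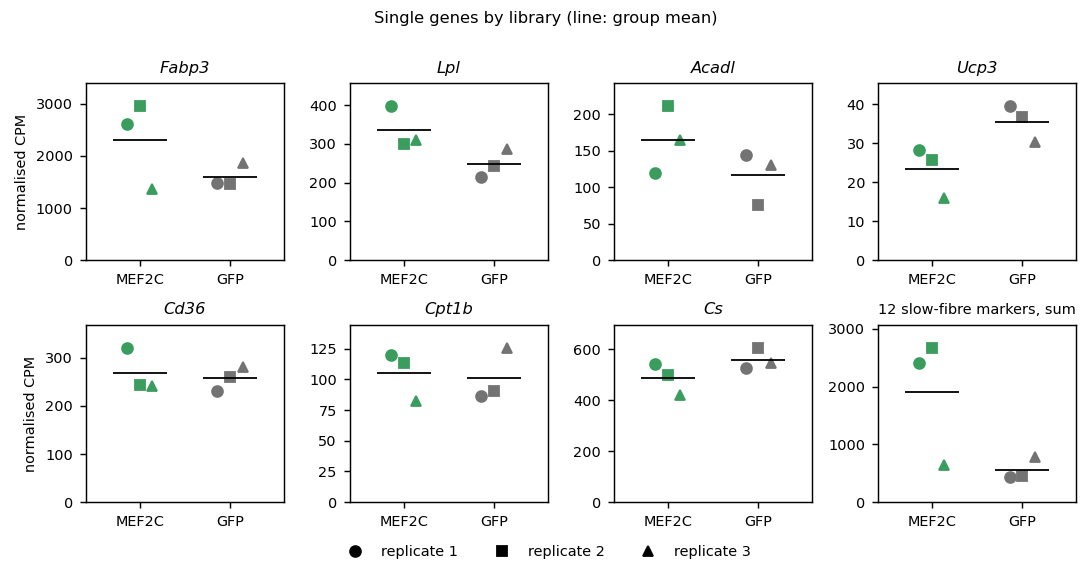
Normalised CPM per library (vertical axis, from 0) for 7 single genes and the sum of 12 slow-fibre markers, by group; symbols mark the replicate number and lines the group means. Fabp3 and the slow-fibre sum are high in MEF2C replicates 1 and 2. In replicate 3 Fabp3 lies below every GFP library and the sum lies within the GFP range. Ankrd2 alone gives 408 of the 785 CPM of the sum in GFP replicate 3. All 3 Lpl values are above and all 3 Ucp3 values below those of the GFP libraries.

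The carnitine shuttle differed little. Cpt1b, the muscle form of carnitine palmitoyltransferase 1 and the gate of mitochondrial fatty acid entry (chromosome 15, 89416405 to 89425863), measured 120, 113 and 82.5 CPM (MEF2C) against 86.5, 90.6 and 125 (GFP). Both groups spanned nearly the same range, with a log2 fold change of 0.06 ± 0.18 (SE; 95% interval -0.32 to 0.44; edgeR adjusted p = 0.993). Exons of Cpt1b share 2744 bases with the annotated gene Gm44502 on the same strand, so that the count is uncertain between them. Cpt2, which returns the acyl group to coenzyme A inside the inner membrane, stood at 47.4, 50.6 and 45.7 against 42.7, 51.7 and 39.0 CPM, a log2 fold change of 0.11 ± 0.15 (SE; edgeR adjusted p = 0.993). The Cpt2 groups overlapped too.

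Of the 4 acyl-CoA dehydrogenases, which take fatty acids of falling chain length through the first step, all had a positive log2 fold change. Acadl, the long-chain enzyme (ENSMUSG00000026003, chromosome 1, 66830839 to 66863277), measured 119, 210 and 164 CPM (MEF2C) against 144, 75.0 and 130 (GFP). It was 1 of 4 genes whose lowest MEF2C library was not replicate 3, and its low GFP value was in replicate 2. The log2 fold change was 0.50 ± 0.29 (SE; 95% interval -0.20 to 1.20; edgeR adjusted p = 0.930). It was 0.28 without MEF2C replicate 2 and 0.26 without GFP replicate 2. The very-long-chain enzyme Acadvl had a log2 fold change of 0.14 ± 0.14, the medium-chain enzyme Acadm 0.17 ± 0.13 and the short-chain enzyme Acads 0.02 ± 0.25 (SE). Exons of Acadvl share 1151 bases with Dvl2 on the other strand.

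The later steps of beta-oxidation had log2 fold changes between 0.02 (Hadhb) and 0.25 (Hadh). Hadh, the short- and medium-chain hydroxyacyl-CoA dehydrogenase (chromosome 3, 131233419 to 131272101), measured 112, 134 and 89.3 CPM (MEF2C) against 77.3, 102 and 102 (GFP), with a log2 fold change of 0.25 ± 0.17 (SE; 95% interval -0.10 to 0.61; edgeR adjusted p = 0.944). MEF2C replicate 3 lay within the GFP range. The change was 0.10 without MEF2C replicate 2, 0.39 without MEF2C replicate 3 and 0.12 without GFP replicate 1. Echs1, the short-chain hydratase, had 0.06 ± 0.17 and Acaa2, the mitochondrial thiolase, 0.15 ± 0.25 (SE).

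Hadha and Hadhb, the subunits of the trifunctional protein that takes long chains through the last steps, are neighbours on chromosome 5 (30118304 to 30155162, minus strand, and 30155248 to 30184593, plus strand) and start back to back. Hadha measured 236, 209 and 138 CPM (MEF2C) against 183, 178 and 197 (GFP). Hadhb stood at 359, 359 and 278 against 296, 332 and 352 CPM. Both were above every GFP library in MEF2C replicates 1 and 2 and below every one in replicate 3, with log2 fold changes of 0.07 ± 0.17 and 0.02 ± 0.13 (SE). The stretch between the genes is shown because it lies before the start of both: it holds 85 bases in GENCODE, while the RefSeq starts are 272 bases apart. Capitals mark the 68 bases that fall within 250 bases of both RefSeq starts (RefSeq, GRCm38.p6, chr5:30155163-30155247, plus strand).
between Hadha and Hadhb: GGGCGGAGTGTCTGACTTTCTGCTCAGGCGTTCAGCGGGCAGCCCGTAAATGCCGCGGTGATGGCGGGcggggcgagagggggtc

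Auxiliary enzymes and electron acceptors lay close to 0. Eci1, an isomerase that unsaturated fatty acids need, measured 123, 118.5 and 88.8 CPM (MEF2C) against 91.0, 109 and 116 (GFP; log2 fold change 0.06 ± 0.15, SE; edgeR adjusted p = 0.993), and Decr1, the dienoyl-CoA reductase, had -0.02 ± 0.18. Electron transfer flavoprotein, which carries electrons from the acyl-CoA dehydrogenases, is made of Etfa and Etfb, and Etfdh passes them on to the respiratory chain. Etfb stood at 559, 583.5 and 402 CPM against 443, 480 and 516, with a log2 fold change of 0.10 ± 0.14 (SE; edgeR adjusted p = 0.993), while Etfa had 0.07 ± 0.14 and Etfdh -0.05 ± 0.17 (SE). Exons of Etfb share 617 bases with Gm45233 on the same strand. MEF2C replicates 1 and 2 were above and replicate 3 below every GFP library for Eci1, Etfb and Etfdh.

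Among the fuel switch genes, Ucp3 had the largest negative difference of the 43. Ucp3, a mitochondrial carrier known to follow fatty acid supply in muscle (ENSMUSG00000032942, chromosome 7, 100472990 to 100486432), measured 28.2, 25.7 and 16.0 CPM (MEF2C) against 39.4, 36.7 and 30.2 (GFP). All libraries labelled MEF2C were below all GFP libraries, in the direction opposite to most fatty acid genes. The log2 fold change was -0.61 ± 0.21 (SE; 95% interval -1.05 to -0.16; edgeR adjusted p = 0.749), and between -0.77 (without MEF2C replicate 1) and -0.39 (without MEF2C replicate 3) when single libraries were left out. Its upstream sequence is shown because it was the only one of the 37 genes with a matched promoter to hold more than 1 copy of the nuclear receptor motif AGGTCA on either strand of its window. The bases are from RefSeq (GRCm38.p6, chr7:100472741-100472990, plus strand), and capitals mark the copies, which begin 149 and 44 bases before the start.
Ucp3: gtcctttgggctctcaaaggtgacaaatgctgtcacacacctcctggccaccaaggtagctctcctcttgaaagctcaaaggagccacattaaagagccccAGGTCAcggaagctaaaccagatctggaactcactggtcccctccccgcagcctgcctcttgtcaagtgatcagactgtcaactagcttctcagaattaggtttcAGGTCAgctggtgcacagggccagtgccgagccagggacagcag

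Pdk4 and Pdk2 phosphorylate and so restrain pyruvate dehydrogenase, Pdk4 being the form known to be induced by fasting. Pdk4 (chromosome 6, 5483351 to 5496309) was scarce, with 14.5, 6.97 and 3.87 CPM (MEF2C) against 10.1, 4.79 and 3.98 (GFP). The spread within each group exceeded the difference, a log2 fold change of 0.42 ± 0.54 (SE; 95% interval -0.82 to 1.67; edgeR adjusted p = 0.993). Pdk2 had a log2 fold change of -0.004 ± 0.13 (SE) with an interval from -0.28 to 0.27.

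The pyruvate dehydrogenase complex was close to level. Pdha1, its catalytic subunit (chromosome X, 160122209 to 160138413), measured 452, 404 and 398 CPM (MEF2C) against 384, 450 and 430 (GFP), with a log2 fold change of -0.01 ± 0.12 (SE; 95% interval -0.27 to 0.25; edgeR adjusted p = 0.997). The partner subunit Pdhb had 0.01 ± 0.14 (SE). Dlat, the acetyltransferase core, stood at 59.3, 72.5 and 69.2 against 68.4, 51.0 and 55.4 CPM, a log2 fold change of 0.20 ± 0.15 (SE; edgeR adjusted p = 0.976), which was 0.32 without GFP replicate 1 and 0.11 without GFP replicate 2. Groups overlapped for all 3. Dlat lies 30820 bases from Sdhd on chromosome 9, whose log2 fold change was -0.08 ± 0.14 (SE).

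At the entry of the cycle, Cs encodes citrate synthase, whose enzyme activity is often used as a measure of mitochondrial content. Only its RNA was measured here. Cs (ENSMUSG00000005683, chromosome 10, 128337734 to 128362479) stood at 544, 497 and 420 CPM (MEF2C) against 528, 604 and 547 (GFP). MEF2C replicate 1 lay within the GFP range and the other 2 below it. The log2 fold change was -0.20 ± 0.13 (SE; 95% interval -0.47 to 0.07; edgeR adjusted p = 0.930), and it was -0.11 without MEF2C replicate 3. The subunits of the NAD-linked isocitrate dehydrogenase, Idh3a, Idh3b and Idh3g, were nearly alike at -0.09 ± 0.12, -0.07 ± 0.12 and -0.09 ± 0.12 (SE). The NADP-linked mitochondrial enzyme Idh2 differed in sign, at 0.22 ± 0.18 (SE), and was the only cycle gene with MEF2C replicates 1 and 2 (115 and 96.6 CPM) above every GFP library; its value in replicate 3 (65.6 CPM) was below every one. The Idh2 change was 0.03 without MEF2C replicate 1 and 0.41 without MEF2C replicate 3.

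All 5 genes of the oxoglutarate dehydrogenase and succinyl-CoA ligase steps had a negative log2 fold change. Sucla2, the subunit of the ATP-forming ligase (chromosome 14, 73525319 to 73596142), measured 229, 246 and 318.5 CPM (MEF2C) against 311, 304 and 316 (GFP). Here MEF2C replicates 1 and 2 were low and replicate 3 was at the GFP level, the reverse of Fabp3, with a log2 fold change of -0.23 ± 0.14 (SE; 95% interval -0.53 to 0.06; edgeR adjusted p = 0.928). It was -0.14 without MEF2C replicate 1 and -0.39 without MEF2C replicate 3. Suclg1, the subunit shared by both ligases, stood at 442.5, 429 and 378.5 against 463, 482 and 479 CPM, with no overlap and a log2 fold change of -0.19 ± 0.12 (SE; edgeR adjusted p = 0.928). The oxoglutarate dehydrogenase components Ogdh, Dlst and Dld had -0.05 ± 0.15, -0.12 ± 0.15 and -0.11 ± 0.13 (SE); Dld also serves pyruvate dehydrogenase.

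Succinate dehydrogenase, which is also complex II of the respiratory chain, had log2 fold changes from -0.08 (Sdhd) to 0.03 (Sdhc) over its 4 subunits. Sdhb, the iron-sulfur subunit (chromosome 4, 140961203 to 140979193), measured 1258, 1287 and 990.5 CPM (MEF2C) against 1146, 1227 and 1355 (GFP; log2 fold change -0.08 ± 0.13, SE; edgeR adjusted p = 0.993). Fumarase (Fh1) had 0.07 ± 0.13 and the cytosolic malate dehydrogenase Mdh1 0.06 ± 0.15 (SE). The mitochondrial malate dehydrogenase Mdh2 (chromosome 5, 135778480 to 135790398) stood at 1129, 1102 and 917 against 942.5, 1179 and 1240 CPM, a log2 fold change of -0.10 ± 0.13 (SE; edgeR adjusted p = 0.993). Groups overlapped for each of these 7 genes.

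To compare the fatty acid genes with the cycle and pyruvate dehydrogenase genes free of library scaling, their counts were set against each other within each library. The 20 fatty acid genes took 40.9%, 43.2% and 35.9% of the counts of these 40 genes in the libraries labelled MEF2C, against 35.2%, 32.8% and 36.1% with GFP. The means were 40.01% ± 3.72 and 34.7% ± 1.70 (SD, n = 3 per group), and MEF2C replicate 3 lay within the GFP range. Fabp3 held between 31.4% and 43.2% of the fatty acid counts, the largest shares being in MEF2C replicates 1 and 2. Without Fabp3 and without Sdhb, the most abundant gene of the other set, the shares were 32.3%, 33.6% and 30.6% against 29.7%, 27.8% and 30.2%, which did not overlap, and the difference between means was 2.94 percentage points in place of 5.31. As a mean over genes of log2 CPM, with each gene counted alike, the fatty acid minus cycle and pyruvate dehydrogenase difference was 0.18, 0.31 and 0.04 (MEF2C) against -0.01, -0.08 and 0.07 (GFP), where MEF2C replicate 3 overlapped. No test was made of these sums, since the genes were chosen with earlier results of these data known.

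**Figure D3:**
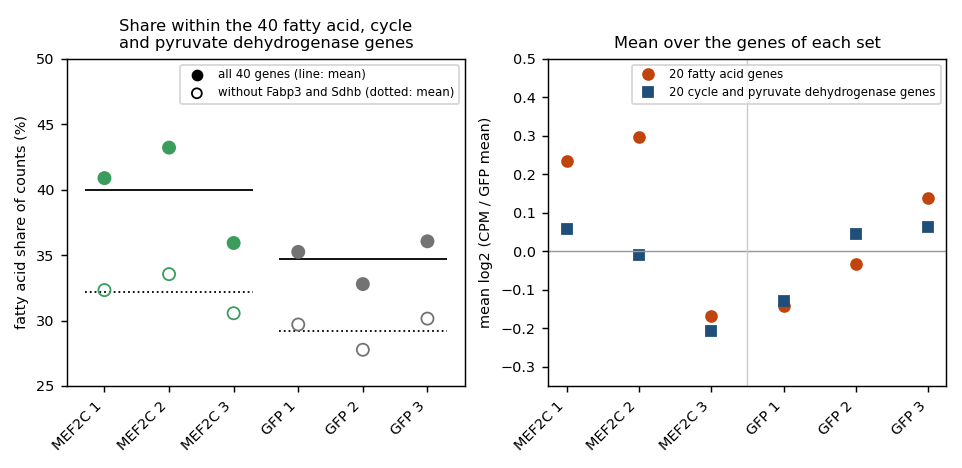
Left, percent of the counts of the 40 fatty acid, cycle and pyruvate dehydrogenase genes that fell in the 20 fatty acid genes, per library (axis from 25%; filled, all genes; open, without Fabp3 and Sdhb; lines, group means); right, mean over genes of log2 CPM relative to the GFP mean for each set. The sets lie apart in MEF2C replicates 1 and 2 and close together in MEF2C replicate 3 and in GFP replicate 1.

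For most of the genes, the libraries labelled MEF2C stood apart by replicate. MEF2C replicate 3 was the lowest of its group for 39 of the 43 genes, beside 36.0% of all genes tested, the exceptions being Lpl, Acadl, Dlat and Sucla2. It was below every GFP library for 27 of the 43, beside 26.1% of all genes tested. MEF2C replicates 1 and 2 were both above every GFP library for 12 of the 20 fatty acid genes and 1 of the 17 cycle genes, beside 12.04% of all genes tested. The mean over genes of log2 CPM relative to the GFP mean was 0.23, 0.30 and -0.17 for the fatty acid set in MEF2C replicates 1, 2 and 3, and 0.06, -0.01 and -0.21 for the cycle and pyruvate dehydrogenase set. The GFP libraries also differed: GFP replicate 1 was the lowest of its group for 32 of the 43 genes, beside 35.6% of all genes tested. These libraries were singled out after their values were seen. Without MEF2C replicate 3, the median log2 fold change was 0.22 for the fatty acid set and 0.02 for the cycle and pyruvate dehydrogenase set, and 10 of the 43 genes had an unadjusted p under 0.05, beside 6.72% of all genes tested in that fit.

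**Figure D4:**
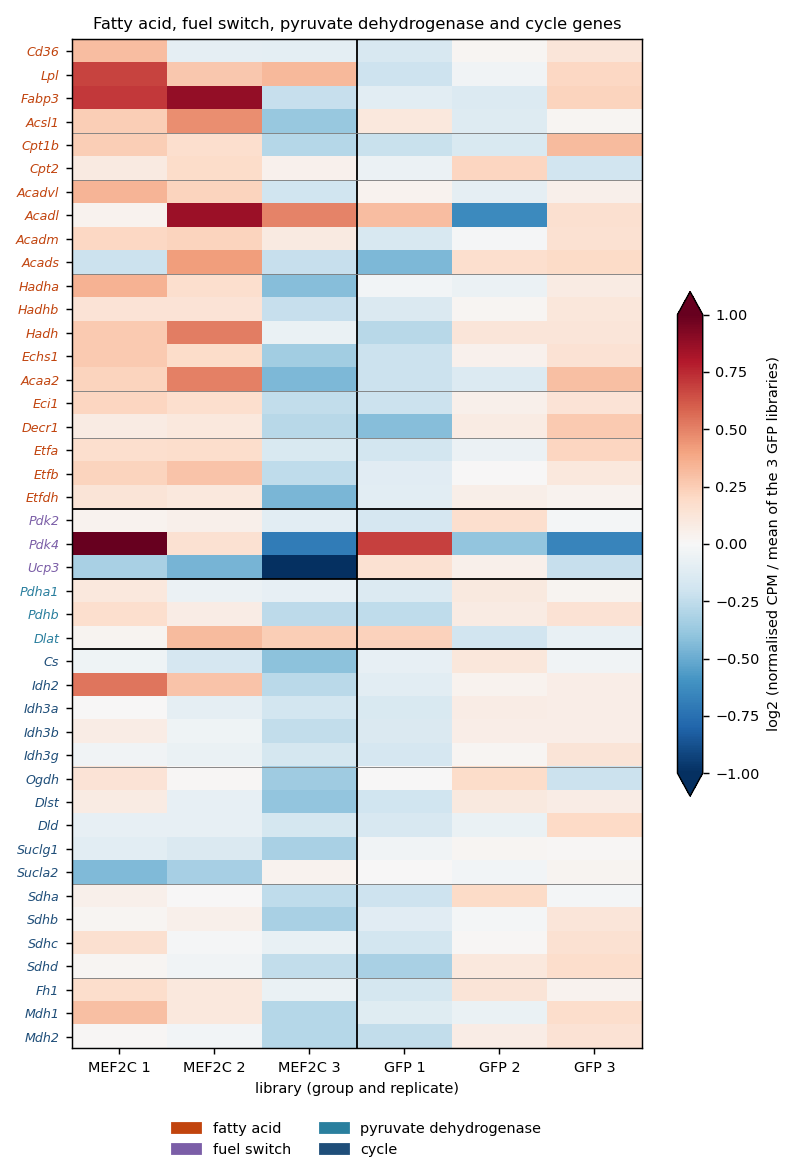
Heat map of log2 normalised CPM relative to the mean of the 3 GFP libraries, with the 43 genes in rows by class and the 6 libraries in columns (red, above; blue, below; the scale ends at -1 and 1). MEF2C replicate 3 is blue for most genes of every class, and red in MEF2C replicates 1 and 2 is concentrated in the fatty acid genes.

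Other genes of these pathways gave a mixed picture, with 0 of 91 tested genes called by edgeR (4 had an unadjusted p under 0.05) and 59 positive. Further genes of fatty acid transport and oxidation were positive in 18 of 31 tested cases with a median log2 fold change of 0.04. In that list Bdh1, the mitochondrial hydroxybutyrate dehydrogenase, averaged 9.03 ± 3.69 CPM with MEF2C and 4.45 ± 1.06 with GFP (SD, 3 libraries each; edgeR adjusted p = 0.749). Acacb, whose product malonyl-CoA inhibits Cpt1b, averaged 33.1 ± 5.25 against 25.1 ± 1.25 (edgeR adjusted p = 0.852). Acat1, the acetoacetyl-CoA thiolase, averaged 188 ± 14.6 against 158 ± 5.95 (edgeR adjusted p = 0.902). Genes of lipolysis and lipid droplets were positive in 11 of 17 with a median of 0.08. G0s2, an inhibitor of triglyceride lipase, Gpam and Agpat2, of triglyceride synthesis, had 0.55 ± 0.32, -0.23 ± 0.20 and 0.95 ± 0.77 (SE). Agpat2 measured 12.95, 79.4 and 24.2 CPM (MEF2C) against 20.15, 17.55 and 22.5 (GFP), highest in MEF2C replicate 2.

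Regulators were positive in 9 of 19 with a median of -0.03. The nuclear receptor Esrrg measured 7.26, 7.22 and 3.87 CPM (MEF2C) against 2.96, 2.23 and 3.71 (GFP; log2 fold change 1.01 ± 0.36, SE; edgeR adjusted p = 0.766). The coactivator Ppargc1a stood at 21.2, 26.6 and 18.9 against 31.4, 27.4 and 27.3 CPM (-0.37 ± 0.18, SE; edgeR adjusted p = 0.904). Foxo1, a transcription factor of the fasting response, measured 30.6, 10.7 and 14.3 CPM (MEF2C) against 9.78, 8.295 and 7.685 (GFP), highest in MEF2C replicate 1. Its log2 fold change was 1.10 ± 0.38 (SE, edgeR adjusted p = 0.803). Groups did not overlap for these 3, Esrrg and Foxo1 being higher and Ppargc1a lower in the libraries labelled MEF2C. They did not overlap for Rxrg (higher) and Gabpa (lower) either. Of all 91 other pathway genes tested, 7 were higher and 3 lower without overlap, beside 5.75% and 5.33% of all genes tested. Further genes of the cycle, pyruvate entry and anaplerosis were positive in 21 of 24 with a median of 0.16, where that of the 17 cycle genes above was -0.08. There the malic enzyme Me3 had -0.28 ± 0.14, the cytosolic enzyme Aco1 0.37 ± 0.19 and the kinase Pdk1 0.61 ± 0.36 (SE; edgeR adjusted p = 0.913, 0.928 and 0.928).

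The 43 genes lie on 18 chromosomes and their longest annotated transcripts run from 823 (Fabp3) to 5676 bases (Acsl1). RefSeq promoter windows, 250 bases before to 50 after each start, were matched for 37 of them, 44 windows in all. The motif AGGTCA, read by many nuclear receptors, occurred on either strand in 11 of these 44 windows and in 16.3% of all 32841 windows searched. By gene, where 1 window with the motif sufficed, it was found for 4 of 16 fatty acid genes and 6 of 15 cycle genes. Some genes have several windows, so these counts by gene do not compare with the share of windows. The site of the estrogen-related receptors (TCAAGGTCA, which contains AGGTCA) occurred in 1 window, that of Sdhd, beside 0.423% of all windows. The full peroxisome proliferator response element and the MEF2 site occurred in none of the 44, beside 0.0396% and 0.557% of all windows. Exons of 11 of the 43 share bases with another annotated gene, 9 of them on the other strand only, and since use of strand in the counting is not given in the sources used here, those counts may hold reads of the other gene. Fabp3 also has a named pseudogene, Fabp3-ps1, on chromosome 10.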

How the data were processed

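Skeletal muscle RNA of 3 libraries labelled MEF2C and 3 labelled GFP was sequenced as Nanopore PCR-cDNA from 1 µg of total RNA, per the labels' protocols. The authors deposited read counts per gene, and CPM of the same libraries scaled to whole-library totals, per the file headers and the values; the CPM served only as a check on totals. The submitters' processing notes name minimap2, GRCm38 and DESeq2 1.6.3, without roles. The table's 30 rows naming no gene held 0 counts and were left out.

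Counts were tested with edgeR 4.0.16 (R 4.3.3) by the robust quasi-likelihood test after its group filter (9229 genes) and TMM, without a covariate, with Benjamini-Hochberg adjustment over all tested genes and a threshold of 0.05. Standard errors came from the F statistic. Alternatives used DESeq2 1.42.0, limma 3.58.1 (voom) and the settings named in the closing section; the scripts were tested on simulated data. Coordinates and lengths are from GENCODE vM21 (GRCm38). Replicates of a group differed beyond sampling noise (chi-square per degree of freedom 4.95 to 10.3).

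The 43 genes and the lists were chosen with earlier results of these data known. Values in every library were given for the gene with the smallest p in each of 12 groups of members and for Pdk4, Cd36, Fabp3, Lpl, Cpt1b, Ucp3, Cs and Pdha1, and for other genes where the text turns on them; of each other list, up to 3 genes with the smallest p are named. Nnt has more than 1 row and was left out of its list.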

Additional observations from a re-analysis of the deposited data

How the results depend on the processing

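No alternative called any of the 43 genes except the fit without MEF2C replicate 3, which called Fabp3; the count was 0 to 1 over the fits that leave out 1 library. The count over all genes was 7, and became 4 without the 50 most abundant genes in the library sizes, 35 with no low-count filter, 3 with the strict filter (1 CPM or more in 3 or more libraries, with a mean count of 20 or more), 27 with the DESeq2 Wald test, 3 with limma-voom, 0 with non-robust dispersion (557 at an unadjusted p under 0.05) and 2 with a replicate block; without single libraries it was 0 to 22. It was 3, 1 and 22 without MEF2C replicate 1, 2 or 3, and 2, 2 and 0 without GFP replicate 1, 2 or 3 (386 at an unadjusted p under 0.05 in the last). Whether the replicate numbers pair the libraries does not stand in the labels. The deviations of same-numbered libraries from their group means correlated at -0.235, 0.0483 and -0.251. With means of 3 libraries these values cannot settle whether the libraries were paired. The block turned only Pdk2 among the 43 (0.000). The median fatty acid change was 0.003 to 0.22 and the median cycle and pyruvate dehydrogenase change -0.16 to 0.02 without single libraries; after a loess correction on transcript length (span 0.3) they were 0.04 and -0.10. The share difference was 3.71 to 7.35 percentage points without single libraries, and 0.18 as a mean log2 difference, a different unit. Signs near 0 turned. With library totals these were Decr1 (0.11), Etfdh (0.074), Pdk2 (0.13), Pdha1 (0.12), Idh3a (0.041), Idh3b (0.06), Idh3g (0.039), Ogdh (0.073), Dlst (0.01), Dld (0.017), Sdha (0.07), Sdhb (0.049), Sdhd (0.048) and Mdh2 (0.034). Pdhb turned with DESeq2 size factors (-0.004), the DESeq2 test (-0.004), no filter (-0.008) and the length correction (-0.02, with Hadhb at -0.009), and Pdk2 with the strict filter (0.001) and limma-voom (0.001). Without single libraries, ranges that crossed 0 were Acaa2 -0.076 to 0.370, Acads -0.226 to 0.134, Acsl1 -0.037 to 0.357, Cd36 -0.098 to 0.123, Cpt1b -0.053 to 0.245, Decr1 -0.207 to 0.131, Dlst -0.234 to 0.001, Echs1 -0.065 to 0.221, Eci1 -0.053 to 0.189, Etfa -0.029 to 0.189, Etfb -0.001 to 0.250, Etfdh -0.156 to 0.116, Fh1 -0.022 to 0.139, Hadha -0.101 to 0.259, Hadhb -0.057 to 0.136, Idh3b -0.149 to 0.013, Mdh1 -0.080 to 0.206, Ogdh -0.166 to 0.075, Pdha1 -0.088 to 0.036, Pdhb -0.120 to 0.122, Pdk2 -0.098 to 0.085, Pdk4 -0.211 to 0.928, Sdha -0.170 to 0.043, Sdhb -0.147 to 0.033, Sdhc -0.069 to 0.107 and Sdhd -0.235 to 0.008. Ranges that kept their sign but moved by over 1.5 times, beside those given with the genes, were Acadm 0.085 to 0.256, Acadvl 0.023 to 0.282, Cpt2 0.019 to 0.229, Dld -0.198 to -0.003, Idh3a -0.174 to -0.045, Idh3g -0.180 to -0.025 and Mdh2 -0.220 to -0.009. The cause was not tested.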

Other observations

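Among the other genes of these pathways, Slc25a20 and Ldhb, chosen after their values were seen, had the library pattern of Fabp3. Ech1, Eci2, Ucp2, Lmf1 and Sdhaf2 had the same pattern, Eci2 only narrowly (105.8 CPM in MEF2C replicate 2 against 105.7 in GFP replicate 3). The share of all genes tested with this whole pattern was not computed, only the shares of its parts. Of the 91 other genes tested, 19 were above every GFP library in MEF2C replicates 1 and 2, beside 12.04% of all genes tested. For 24 of the 91, MEF2C replicate 3 was below every GFP library, beside 26.1% of all genes tested. Slc25a20, the carnitine-acylcarnitine carrier of the inner mitochondrial membrane, measured 87.1, 95.4 and 49.6 CPM (MEF2C) against 62.8, 52.3 and 63.9 (GFP; edgeR adjusted p = 0.928). Ldhb, the lactate dehydrogenase subunit of heart and slow muscle, stood at 365, 338 and 130 against 179, 153 and 226 CPM (edgeR adjusted p = 0.982). Both were above every GFP library in MEF2C replicates 1 and 2 and below every one in replicate 3, and the groups overlapped.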
